A study of Mus musculus with 12 samples.

Results

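RNA-seq libraries of mouse embryonic stem (mES) cells treated with 3 nM dTAG13 were compared with libraries of the same cells treated with 0.3 nM, to ask which transcripts differ across a 10-fold step of degrader within the range where BRG1 is only partly removed. The comparison rests on 4 of the 12 libraries of the series, 2 per dose, and on every gene with a mean of at least 1 RPKM (read pairs per kilobase of exon, scaled to library size) over these 4, which held for 11323 of 24421 genes. All libraries came from mES cells labelled B6, a line the methods trace to C57BL/6J embryos, in 2i+LIF medium, a pair of kinase inhibitors with leukaemia inhibitory factor that holds cells in the naive state, with the genotype given as Brg1 dTag knock in. These cells carry the FKBP12-F36V degron on BRG1, so the 0.3 nM and 3 nM groups share the tagged allele. So do the groups given 1, 10 or 100 nM and the controls, which the paper's legends give as 0 nM dTAG13 (DMSO). Every dTAG13 exposure lasted 24 h. According to the methods, knock-in colonies grown from single cells were picked and genotyped, and the number of clones behind these libraries was not stated. By the western blots of the study, less BRG1 remains at 3 nM than at 0.3 nM. No RNA-seq library of untagged cells given dTAG13 was analysed here, so an effect of the compound that does not pass through BRG1 was not tested.

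BRG1, encoded by Smarca4, is the ATPase that drives mSWI/SNF chromatin remodelers, which slide and evict nucleosomes and keep many enhancers open. BRM, encoded by Smarca2, is the alternative ATPase of the same complexes. The heterobifunctional molecule dTAG13 binds the degron and an E3 ubiquitin ligase at once, so the fusion protein is marked for the proteasome while its mRNA is not a target. Naive mES cells depend on OCT4, SOX2, NANOG and the KLF and ESRRB factors, and mSWI/SNF is known for its part in keeping the enhancers of these cells accessible.

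The degron was placed with a guide RNA against the end of the Brg1 gene. Its sequence is shown because every library carries the allele made with it, with the protospacer in lower case and the PAM in capitals.
Brg1 guide: ttggctgggacgagcgcctcGGG
The 23 bases matched transcripts of Smarca4 alone among the annotated mouse transcripts. They lie on GRCm38 (mm10) chromosome 9 from 21702992 to 21703014, on the minus strand, in exon 34 of Smarca4, within the 3′ untranslated region and starting 27 bases past the last annotated coding base.

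Smarca4 transcript did not differ detectably between the doses. It stood at 63.6 and 68.5 RPKM at 0.3 nM and at 67.7 and 65.5 RPKM at 3 nM, and the libraries of the doses overlapped. The log2 fold change of 3 nM over 0.3 nM was 0.01 with a standard error of 0.05 (adjusted p = 0.942 by the quasi-likelihood test of edgeR, Benjamini-Hochberg). The mRNA level therefore gives no check of the dose labels. Smarca2 was low, at 0.376 and 0.807 RPKM at 0.3 nM and 0.500 and 0.672 RPKM at 3 nM, which is 13, 28, 15 and 23 counts. When genes below the RPKM minimum were also fitted, its log2 fold change was -0.02 ± 0.37 (SE, adjusted p = 0.987, same test), so only a large change would have been detectable. Smarca2 shares exon sequence with the gene 4931403E22Rik on the mm10 annotation, and counting did not use the strand.

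The libraries held 5750705 and 5799430 counts at 0.3 nM and 4663484 and 5849613 counts at 3 nM. The ribosomal transcript Rn45s took 15.9% and 16.2% of the counts at 0.3 nM and 10.5% and 19% at 3 nM, and 3 nM replicate 1 was the shallowest library of the series. The first principal component of the 4 libraries held 39.4% of the variance and separated the doses, and the second, with 32.1%, separated the libraries within each dose. Sample numbers in the labels set the 0.3 and 3 nM libraries apart from the other doses, and what these numbers mark was not stated. All 10 mES cell markers were expressed. Pou5f1, which encodes OCT4, stood at 571 and 615 RPKM at 0.3 nM and 647 and 590 RPKM at 3 nM (log2 fold change 0.06, adjusted p = 0.637, edgeR). Markers of fibroblast feeders summed to between 2.02 and 4.11 RPKM, those of mesoderm to between 8.49 and 11.9 RPKM, those of trophectoderm to at most 22.1 RPKM and those of 2-cell-like cells to between 2.69 and 3.91 RPKM in the 4 libraries. In these bulk libraries a smaller share of cells with a transcript cannot be told apart from less of that transcript per cell.

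Of the 11323 tested genes, 84 were higher at 3 nM (0.742% of those tested) and 134 were lower (1.18%), at an adjusted p under 0.05 and a change of more than 1.5-fold. At an unadjusted p under 0.05 there were 2097 genes, and without the fold minimum 274 were higher and 321 lower. In all 218 called genes both libraries of 1 dose lay beyond both of the other, which also held for 47.2% of all tested genes. Falls were larger than rises: 46 genes fell and 15 rose by more than 2-fold, and 4 fell and 0 rose by more than 4-fold. All 84 higher genes and 132 of the 134 lower genes were annotated as protein-coding in RefSeq, as were 88.8% of the tested genes. The counts were smallest without 0.3 nM replicate 1, at 38 higher and 84 lower. Among scalings, library sizes without normalization factors gave 96 higher and 97 lower, and TMM factors from every gene of the table gave 66 and 177. The labels do not say that the libraries of a dose came from separate cultures, while the paper's legends describe its expression data as from 2 independent experiments. The p-values measure the spread between libraries of a condition, estimated over all 12 libraries.

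**Figure D1:**
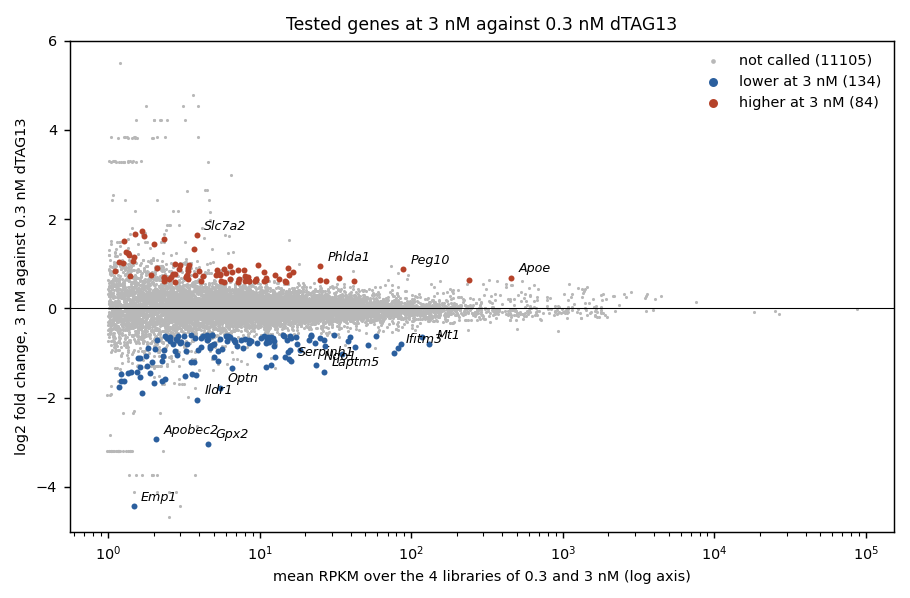
Each point is a tested gene, with its mean RPKM over the 4 libraries on a log axis against its log2 fold change at 3 nM over 0.3 nM. The 134 lower genes (blue) reach further from 0 than the 84 higher genes (red), and the grey genes with larger changes at low RPKM did not pass the test.

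The largest fall among called genes was that of Emp1, an epithelial membrane protein of the PMP22 family (mm10 chromosome 6, 135362931 to 135383173, plus strand). Its counts were 49 and 49 at 0.3 nM and 2 and 2 at 3 nM, which is 2.83 and 2.82 RPKM against 0.133 and 0.117 RPKM. With the 3 nM libraries set at a floor of 3 counts each, Emp1 was at least 15.1-fold lower (adjusted p = 2.1e-06, edgeR's quasi-likelihood test). Gpx2, a glutathione peroxidase of epithelia, went from 8.25 and 8.05 RPKM to 1.52 and 0.500 RPKM (log2 fold change -3.03, standard error 0.44, adjusted p = 0.000119, same test). Apobec2, a muscle member of the APOBEC family, had 26 and 25 counts at 0.3 nM but 3 and 3 at 3 nM and was at least 7.85-fold lower. Ildr1, a component of tricellular junctions, went from 5.96 and 6.63 RPKM to 1.07 and 1.93 RPKM, and its log2 fold change was -2.04 (standard error 0.23). The others among the 12 largest falls were Dtx1, Optn, Pwwp2b, Qprt, Scrn1, Des, Nlrx1 and Alpk3, with log2 fold changes from -1.88 to -1.58. Optn encodes an autophagy receptor, Des the intermediate filament desmin, Dtx1 a NOTCH regulator, Qprt an enzyme of NAD synthesis, Nlrx1 a mitochondrial NOD-like receptor and Alpk3 a kinase of heart and muscle. Optn stood at 9.49 and 7.56 RPKM at 0.3 nM and at 2.69 and 2.28 RPKM at 3 nM. Most of these genes were near the lower end of the expression range, and Qprt rested on 22 and 20 counts against 7 and 5. The fall of Qprt kept an adjusted p under 0.05 in 7 of 16 alternative settings, and those of Emp1, Gpx2, Apobec2, Ildr1, Optn and Alpk3 did in 16 of 16. Dtx1 did so in 15 of 16 and Scrn1 in 11 of 16. Nlrx1, Pwwp2b and Des, each fitted in 15 settings, did so in 14, 12 and 12.

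The largest rise among called genes was that of Tmprss11d, an airway serine protease, on 10 and 8 counts at 0.3 nM against 24 and 32 at 3 nM. It stood at 0.861 and 0.686 RPKM and then at 2.38 and 2.78 RPKM (log2 fold change 1.73, standard error 0.40, adjusted p = 0.0119, edgeR). Slc7a2, a transporter of arginine and other cationic amino acids, had the smallest adjusted p of the 12 largest rises. The gene lies on mm10 chromosome 8, 40862367 to 40922070, plus strand. It went from 2.06 and 1.70 RPKM to 5.63 and 6.11 RPKM, a log2 fold change of 1.64 ± 0.14 (SE, adjusted p = 6.63e-08, same test). Slc13a5, the plasma membrane citrate transporter, went from 0.646 and 0.804 RPKM to 2.17 and 2.45 RPKM. The remaining genes of the 12 were Pcsk1n, Ociad2, Tdrkh, Nrg1, Cd68, Gnb4, Adgrb2, Ano3 and Ccdc157, with log2 fold changes from 1.64 to 1.15. Pcsk1n encodes the inhibitor proSAAS, Nrg1 the ERBB ligand neuregulin, Tdrkh a piRNA pathway protein, Gnb4 a G protein beta subunit and Ano3 an anoctamin. All 12 were under 10 RPKM in every library of the 2 doses. The exons of Pcsk1n, Ano3 and Ccdc157 overlap those of Eras, Muc15 and Rnf215, and reads there cannot be assigned by strand. Slc7a2 passed the test in 16 of 16 alternative settings, Slc13a5 in 15, Pcsk1n, Ociad2 and Adgrb2 in 14 and Tmprss11d and Ano3 in 13. Nrg1, Cd68 and Ccdc157 passed in 11, Tdrkh in 9 and Gnb4 in 8.

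Promoter stretches are shown for the largest fall, for a pair of strongly falling glutathione and NRF2 targets, and for the largest rise. Each is the run of 150 bases up to the base before the RefSeq transcription start on GRCm38.p6, written 5′ to 3′ along the gene's strand. Capitals mark matches on either strand to the TATA box (TATAAA), the CCAAT box (CCAAT), the AP-1 site (TGACTCA), a STAT site (TTCNNNGAA), the core of the antioxidant response element (TGACNNNGC) or the CArG box bound by SRF.
Emp1, chr6:135362781-135362930, plus strand: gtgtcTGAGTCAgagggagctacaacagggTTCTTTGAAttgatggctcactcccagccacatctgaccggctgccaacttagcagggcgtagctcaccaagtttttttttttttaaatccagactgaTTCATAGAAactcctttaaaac
Gpx2, chr12:76795555-76795704, minus strand: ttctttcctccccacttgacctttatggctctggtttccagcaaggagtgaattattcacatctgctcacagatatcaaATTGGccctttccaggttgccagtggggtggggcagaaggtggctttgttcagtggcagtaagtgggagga
Nqo1, chr8:107403206-107403355, minus strand: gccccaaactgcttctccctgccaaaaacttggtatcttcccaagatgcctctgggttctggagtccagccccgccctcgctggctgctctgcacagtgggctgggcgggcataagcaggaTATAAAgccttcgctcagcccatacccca
Tmprss11d, chr5:86373388-86373537, minus strand: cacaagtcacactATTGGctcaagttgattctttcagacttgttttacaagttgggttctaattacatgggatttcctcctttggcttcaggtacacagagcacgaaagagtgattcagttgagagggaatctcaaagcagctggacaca
The Emp1 stretch held an AP-1 match 145 to 139 bases before the start and STAT matches at 120 to 112 and at 22 to 14 bases before it, and an antioxidant response core lay further up, at 182 to 174 bases, outside the stretch shown. The Nqo1 stretch held a TATA box 29 to 24 bases before the start, and those of Gpx2 and Tmprss11d each held a CCAAT box on the opposite strand, 71 to 67 and 137 to 133 bases before it. The antioxidant response core was absent from the 250 bases before the start of Gpx2, Nqo1 and Tmprss11d, and bases further up were not searched. Among the 250-base windows before the start of the 8376 tested genes matched to RefSeq promoters, the AP-1 site was present in 2.64%, the STAT site in 5.77%, the TATA box in 5.84%, the antioxidant response core in 12.3%, the CCAAT box in 37.3% and the CArG box in 1.1%. Matches describe letters only. A comparison of motif shares between called and other genes was not made, because under 80% of the called genes had a promoter in the table.

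**Figure D2:**
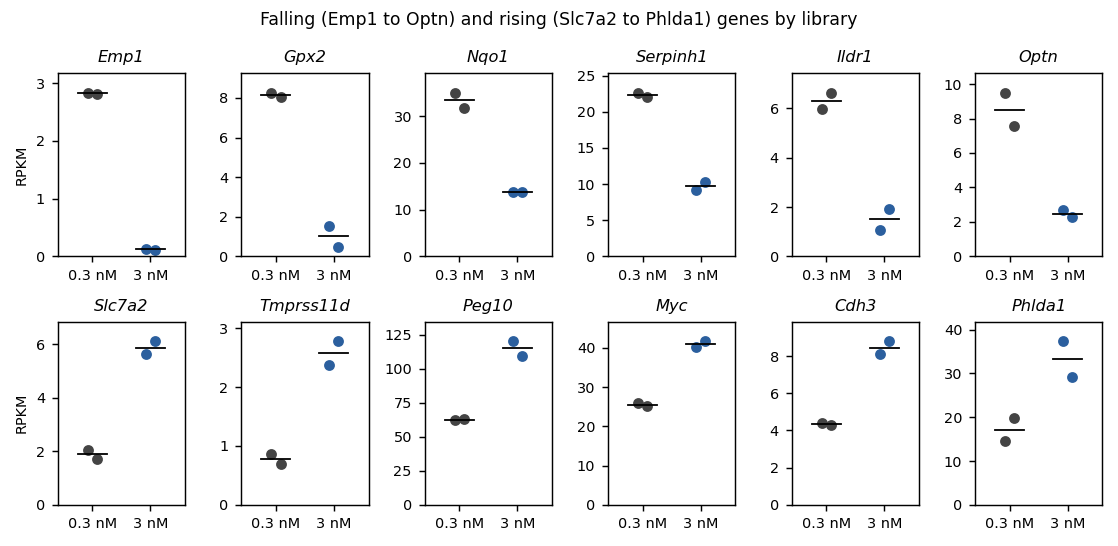
RPKM in each of the 4 libraries for 6 genes that fell (top) and 6 that rose (bottom), with bars at the mean of the 2 libraries of a dose. In every panel both points of 3 nM lie clear of both points of 0.3 nM.

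Genes of glutathione metabolism and NRF2, the transcription factor that answers oxidative and electrophilic stress, moved in 1 direction where they moved. Of 28 tested members, 5 fell and 0 rose, against 1.18% and 0.742% of all tested genes, and the median log2 fold change was -0.16 against 0.00 over all tested genes. The list was chosen with earlier results of these data known, so these counts describe its members and test nothing about the pathway. Nqo1, a quinone reductase and standard NRF2 target, stood at 35 and 31.8 RPKM at 0.3 nM and 13.7 and 13.9 RPKM at 3 nM (log2 fold change -1.27, standard error 0.12, adjusted p = 8.99e-07, edgeR). Gpx2 was given above with its promoter. The metallothioneins Mt1 and Mt2, which bind zinc and copper, were among the most abundant genes that fell. Mt1 went from 167 and 167 RPKM to 89.5 and 102 RPKM, and Mt2 from 117 and 90.5 RPKM to 43.4 and 59.1 RPKM, which is 57.2% and 49.5% of the 0.3 nM means. The libraries of the doses did not overlap for either gene. The fifth member was Gsto1, a glutathione transferase (log2 fold change -0.59, adjusted p = 0.00644, edgeR), which falls outside the rule for named genes and was named after its values were seen. The most abundant members of the list did not pass: Prdx1 had 486 and 459 RPKM at 0.3 nM and 459 and 461 RPKM at 3 nM, and the log2 fold change of Sod1 was -0.10. Cth, the cystathionine lyase that makes cysteine and is outside the list, fell from 69.3 and 71.9 RPKM to 51.0 and 41.6 RPKM.

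In the extracellular matrix list, 3 of 25 tested members rose and 3 fell, and the median log2 fold change was -0.22. Over all tested genes 0.742% rose and 1.18% fell, the shares to set beside this and every list count below. By adjusted p alone 4 members were higher and 10 lower, against 274 and 321 of all 11323 tested genes. Those that fell included Serpinh1, the collagen chaperone HSP47, and Mmp14, a membrane-bound metalloproteinase. Serpinh1 went from 22.6 and 22.0 RPKM to 9.21 and 10.3 RPKM (log2 fold change -1.19, standard error 0.12, adjusted p = 9.14e-07, edgeR). Mmp14 went from 10.6 and 10.5 RPKM to 6.64 and 6.37 RPKM. Col4a1 and Col4a2, the paired type IV collagen chains of basement membranes, and Plod3, a collagen lysyl hydroxylase, rose. Col4a1 had 7.45 and 9.83 RPKM at 0.3 nM and 14.4 and 12.6 RPKM at 3 nM (log2 fold change 0.64, standard error 0.11, adjusted p = 0.000606). The log2 fold change was 0.71 for Col4a2 (adjusted p = 0.033, edgeR) and 0.60 for Plod3 (adjusted p = 0.0267, same test). These 2 rises were less secure, with an adjusted p under 0.05 in 11 of 16 alternatives each, against 16 of 16 for Col4a1. The number of members called higher ranged from 0 to 3 over the alternatives and the number called lower from 2 to 4. Plod3 overlaps Znhit1 and Mir702. The most abundant members, Fn1 and Lamc1, passed the adjusted p but not the fold minimum, with log2 fold changes of -0.44 and 0.32. Of 17 tested integrins and adhesion receptors, 2 rose and 0 fell, with a median of 0.20. These were Sdc1, a heparan sulphate proteoglycan (11.9 and 12.1 against 17.2 and 18.9 RPKM), and Ncam1, the neural cell adhesion molecule (1.72 and 1.82 against 3.25 and 2.53 RPKM). Itgb1, the beta chain shared by many integrins, had a log2 fold change of 0.52 (adjusted p = 3.65e-06), below the fold minimum. Pecam1, an adhesion receptor that the list does not hold, fell (log2 fold change -0.68, adjusted p = 0.0128, edgeR). It was named after its values were seen.

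Epithelial junction and keratin genes gave 3 falls and 1 rise among 28 tested members, with a median log2 fold change of -0.15. Besides Ildr1, the claudin gene Cldn4 went from 20.6 and 19.3 RPKM to 11.8 and 13.3 RPKM and the keratin gene Krt8 from 6.15 and 7.48 RPKM to 3.03 and 3.35 RPKM. Cdh3, which encodes P-cadherin, went the other way, from 4.41 and 4.30 RPKM to 8.09 and 8.81 RPKM (log2 fold change 0.96, standard error 0.13, adjusted p = 6.53e-05, edgeR). Cdh1, which encodes E-cadherin and was the most abundant member, stood at 135 and 136 RPKM at 0.3 nM and 132 and 146 RPKM at 3 nM (log2 fold change 0.04, adjusted p = 0.775). Among 29 tested genes of the actin cytoskeleton and SRF targets, 3 fell and 0 rose, and the median was -0.18. These were Emp1, the LIM protein gene Tes (14.7 and 16.3 against 10.2 and 8.66 RPKM) and the calponin gene Cnn2 (log2 fold change -0.59, adjusted p = 0.00914). Emp1 encodes a membrane protein, and this list, like the others, was chosen with earlier results of these data known. Actb, which encodes beta-actin, had a log2 fold change of -0.19 ± 0.04 (SE, adjusted p = 0.00894), and Actg1 one of 0.13 (adjusted p = 0.403).

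Of 30 tested members of the naive and core pluripotency list, 1 fell and 0 rose, against 1.18% and 0.742% of all tested genes, and the median was -0.01. By adjusted p alone 3 members were higher and 6 lower, against 274 and 321 of all 11323 tested genes. The member that fell was Tcl1, an AKT co-activator, which went from 14.6 and 13.3 RPKM to 8.28 and 8.78 RPKM (log2 fold change -0.70, standard error 0.18, adjusted p = 0.023, edgeR) and passed in 11 of 16 alternatives. Dppa5a, the most abundant member, had a log2 fold change of -0.26 (adjusted p = 0.0088), below the fold minimum. In the LIF-JAK-STAT3 list 1 of 19 tested members rose, Myc, while Tfcp2l1, a naive-state transcription factor downstream of STAT3, had a log2 fold change of -0.32 (adjusted p = 0.00013) and Klf4 one of 0.00 (adjusted p = 0.992). In the formative and primed list 0 of 12 members were called, with Dnmt3b, the de novo DNA methyltransferase, at a log2 fold change of 0.43 (adjusted p = 0.000191), below the fold minimum.

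Myc stood at 25.9 and 25.2 RPKM at 0.3 nM and 40.3 and 41.7 RPKM at 3 nM (log2 fold change 0.68, standard error 0.08, adjusted p = 1.15e-05, edgeR). Its relative Mycl went the other way, from 7.31 and 7.56 RPKM to 5.76 and 4.03 RPKM (adjusted p = 0.0348, edgeR, under 0.05 in 10 of 16 alternatives), and these were the 2 called among 18 tested genes of the MYC and MAX network and polyamine synthesis. The most abundant members of that list, Npm1 and Ncl, both nucleolar proteins, had log2 fold changes of -0.01 and -0.02 (adjusted p = 0.962 and 0.833). Among 21 ERK feedback and immediate early genes, Myc and Phlda1 rose and 0 fell. Dusp1, a phosphatase of the same kind that the list does not hold, fell (14.8 and 13.1 against 7.52 and 10.2 RPKM, log2 fold change -0.65, adjusted p = 0.0188) and was named after its values were seen. Phlda1, a pleckstrin homology domain protein, had 14.6 and 19.8 RPKM at 0.3 nM and 37.4 and 29.2 RPKM at 3 nM (log2 fold change 0.95, standard error 0.14, adjusted p = 0.000147).

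The other regulatory and signalling lists held at most 2 called genes each. Among 25 tested mSWI/SNF subunit genes, 1 fell, Smarcd3, a BAF60 subunit, from 8.47 and 8.84 RPKM to 5.41 and 4.95 RPKM (adjusted p = 0.0382, edgeR), and it passed in 9 of 16 alternatives. The abundant subunits Smarcc1 and Actl6a had log2 fold changes of -0.07 and 0.04 (adjusted p = 0.505 and 0.824). Pmepa1, a feedback inhibitor of activin and TGF-beta signalling, fell (log2 fold change -0.62, adjusted p = 0.0389, under 0.05 in 8 of 16 alternatives and in none that left out 1 of the 4 libraries), 1 of 19 in the Nodal and activin list, where Tdgf1, the Nodal co-receptor, had a log2 fold change of 0.42 (adjusted p = 0.000133), below the fold minimum. Notch4 rose (log2 fold change 0.67, adjusted p = 0.0235), 1 of 19 in the NOTCH and Hippo list. The semaphorin and VEGF co-receptor Nrp2 rose (2.54 and 2.66 against 4.22 and 4.03 RPKM), 1 of 20 axon guidance genes with a list median of 0.20. The netrin receptor gene Unc5b, outside that list, fell (log2 fold change -0.74, adjusted p = 0.00215, edgeR) and was named after its values were seen. Irs2, the insulin receptor substrate, fell (log2 fold change -0.71, adjusted p = 0.0146), 1 of 12 in the insulin-like growth factor list. Btg2, an antiproliferative p53 target, fell (log2 fold change -0.66, adjusted p = 0.00359), 1 of 25 p53 targets. BMP and ID genes (11 tested), WNT pathway genes (21), retinoic acid response genes (10), Polycomb and heterochromatin regulators (28), CHD and NuRD genes (23) and Hox genes (1 tested of 38) held 0 called members. The WNT list is not complete. Outside it, Sfrp1, a secreted WNT antagonist, and the WNT-linked Dact2, Tle3 and Vangl1 fell (log2 fold changes -0.85, -0.98, -0.62 and -0.84). They were named after their values were seen, and rises outside the list were not searched for.

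Of the housekeeping groups, the 74 cytosolic ribosomal protein genes held 0 calls, with 8 positive log2 fold changes and a median of -0.09, the 35 oxidative phosphorylation genes 0 calls with a median of -0.05, the 33 cell cycle genes 0 calls with a median of -0.04 and the 26 glycolysis and hypoxia genes 0 calls with a median of 0.01. Gapdh stood at 1135 and 1100 RPKM at 0.3 nM and at 1105 and 1003 RPKM at 3 nM. Single members fell in the heat shock list (Hspb8, a small heat shock protein, 19.4 and 18.3 against 11.4 and 11.6 RPKM), in the cholesterol and fatty acid list (Stard4, a sterol carrier, 69 and 55 counts against 28 and 31, with an adjusted p under 0.05 in 8 of 16 alternatives and in none that left out 1 of the 4 libraries) and in the lysosome and autophagy list (Optn). In the amino acid and integrated stress response list 1 of 23 rose, the neutral amino acid transporter gene Slc1a4 (2.11 and 2.59 against 3.41 and 5.34 RPKM), while Atf4, the transcription factor of that response, had a log2 fold change of -0.15 (adjusted p = 0.19). Of 15 tested MHC class I and interferon-linked genes, 2 fell, Ifitm3 and Ifitm1, which encode interferon-induced membrane proteins that restrict virus entry. Ifitm3 went from 110 and 104 RPKM to 56.4 and 58.2 RPKM (log2 fold change -0.90, standard error 0.10, adjusted p = 7.05e-06). The neighbouring Ifitm2 had a log2 fold change of -0.10 (adjusted p = 0.661). Reads shared by these similar genes, or by Mt1 and Mt2, were left out if they aligned to several places, so their levels are uncertain to that extent.

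**Figure D3:**
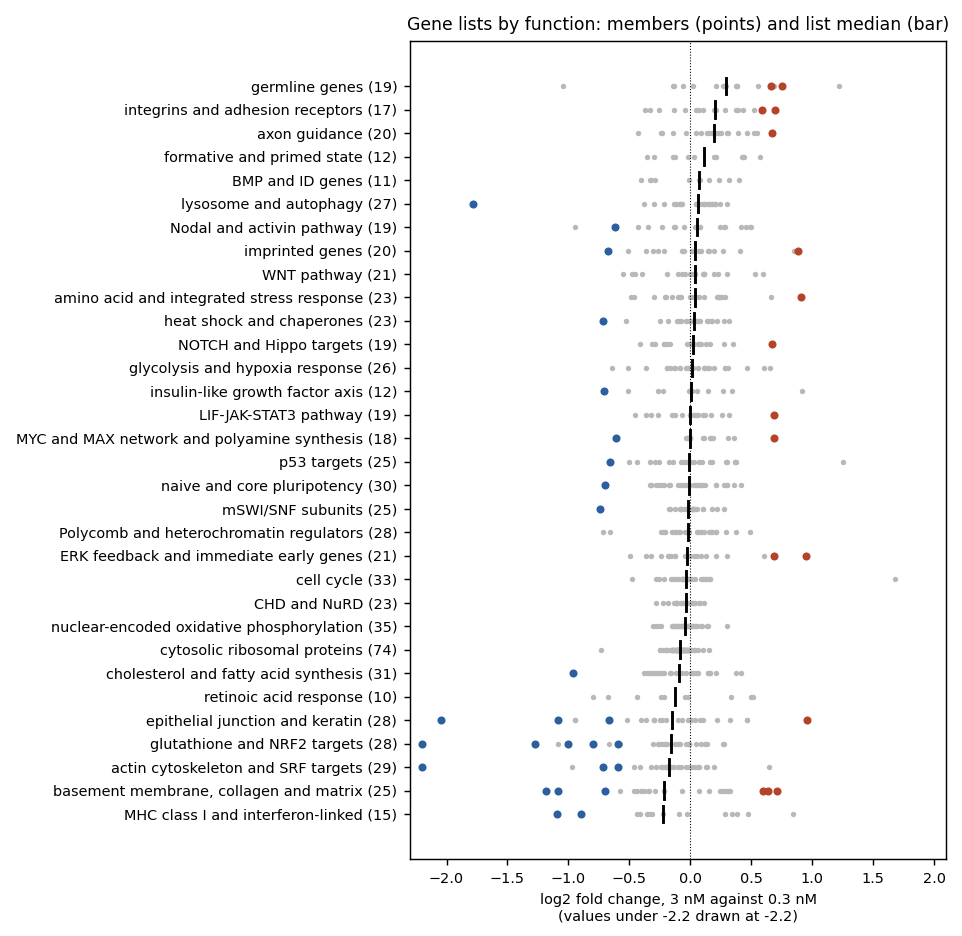
Log2 fold changes at 3 nM over 0.3 nM of the members of 32 gene lists with at least 10 tested members (number in brackets), with members that rose in red, that fell in blue and the rest in grey, and a bar at the list median. List medians lie between -0.23 (MHC class I and interferon-linked) and 0.30 (germline), while over all tested genes the median is 0.00.

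Peg10, a paternally expressed gene derived from a retrotransposon, had the smallest adjusted p of the rises. It stood at 62.2 and 62.8 RPKM at 0.3 nM and at 120 and 110 RPKM at 3 nM, 1.84-fold (log2 fold change 0.88, standard error 0.05, adjusted p = 8.16e-10, edgeR). Of 20 tested imprinted genes it was the 1 that rose, and Rian, a maternally expressed noncoding RNA, was the 1 that fell (6.54 and 6.91 against 4.59 and 3.87 RPKM). Among 19 germline genes Stag3 and Sycp1, of the meiotic cohesin and the synaptonemal complex, rose and 0 fell, with a list median of 0.30. Stag3 went from 9.87 and 10.9 RPKM to 16.8 and 16.2 RPKM. Markers of germ cells summed to 40.8 and 39.4 RPKM at 0.3 nM and 48.6 and 49.5 RPKM at 3 nM, with 0 of 8 tested members called. Of 10 neural markers 3 were tested and Nes, the neural filament gene, rose (2.1 and 1.98 against 3.81 and 3.13 RPKM, adjusted p = 0.0118), while Tubb3 had a log2 fold change of 0.49, below the fold minimum. The neural markers summed to 36.8 and 41.4 RPKM at 0.3 nM and 55.1 and 55.2 RPKM at 3 nM, and 1 of the 10 had no count in the 4 libraries. Markers of primitive endoderm, of which 3 of 10 were tested, summed to 104 and 108 RPKM and then to 81.3 and 88.8 RPKM, mostly Sparc (92.2 and 93.1 against 62.5 and 71.5 RPKM, log2 fold change -0.47), with Col4a1 as the member that rose. The part of such cells in the changes of Col4a1, Ncam1, Stag3 and Sycp1 was not tested.

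The most abundant genes that rose were Apoe, Slc25a4, Peg10, Slc25a20, Myc and Adam9. Apoe, a lipid transport protein, went from 337 and 368 RPKM to 516 and 618 RPKM, 1.61-fold. The mitochondrial carriers Slc25a4 (ADP and ATP) and Slc25a20 (acylcarnitine) went from 189 and 189 RPKM to 310 and 280 RPKM and from 34.5 and 31.9 RPKM to 50.3 and 51.9 RPKM. Adam9, a membrane metalloproteinase, went from 20.4 and 23 RPKM to 30.6 and 35.9 RPKM. The most abundant genes that fell were Mt1, Ckb, Capns1, Ifitm3, Mt2 and Cth. Ckb, the brain-type creatine kinase, had 139 and 149 RPKM at 0.3 nM and 94.3 and 89.9 RPKM at 3 nM, and Capns1, the calpain small subunit, 109 and 108 RPKM against 63.7 and 62.2 RPKM. All 12 kept an adjusted p under 0.05 in 16 of 16 alternatives.

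The same genes were followed in the 10-fold step from 1 to 10 nM and at 100 nM against the controls. These libraries are not those of the contrast, but in the joint fit they helped set the spread by which the 218 genes were called. At 10 nM against 1 nM, 0.751% of the tested genes were higher and 1.74% lower by the same rule. Of the 134 genes lower at 3 nM, 83 (61.9%) were lower there and 0 higher, and these were 42.1% of the genes lower at that step. Of the 84 higher genes, 25 (29.8%) were higher and 0 lower, 29.4% of those higher there. At 100 nM against the controls, where 4.25% of tested genes were higher and 6.77% lower, 123 (91.8%) of the lower genes were lower and 0 higher, and 48 (57.1%) of the higher genes were higher and 1, Syngr1, lower. Seen from that side they were 16% of the lower and 9.98% of the higher genes. The median log2 fold change of the lower genes was -0.83 at 3 nM against 0.3 nM, -0.78 at 10 against 1 nM and -1.56 at 100 nM against control, and that of the higher genes was 0.75, 0.45 and 0.77. The first value of each is set by the choice of genes. In separate fits, the 4 libraries of 0.3 and 3 nM alone called 54 genes higher (0.477% of those tested) and 95 lower (0.839%), and the other 8 libraries alone were then used to follow them. At 10 nM against 1 nM, 24 of the 54 (44.4%) were higher and 69 of the 95 (72.6%) lower, against 0.795% and 1.75% of all tested genes. At 100 nM against the controls, 35 (64.8%) were higher and 90 (94.7%) lower, against 4.35% and 6.82%. These separate fits were added after seeing the data.

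**Figure D4:**
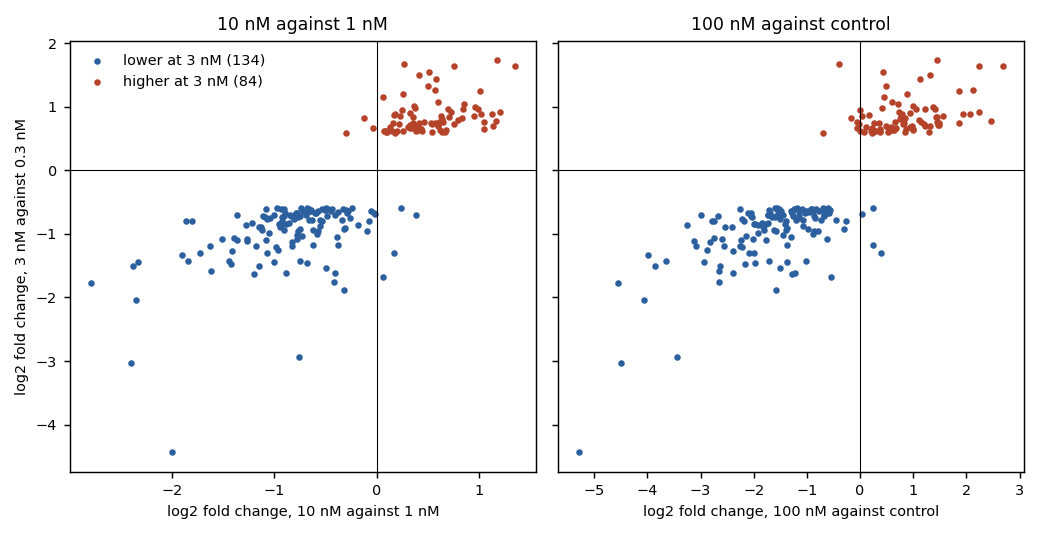
Log2 fold changes of the 218 called genes at 3 nM over 0.3 nM (vertical) against those at 10 over 1 nM (left) and 100 nM over control (right), which use other libraries that shared in the joint estimate of the spread. Of the 134 lower genes (blue), 130 lie left of 0 in each panel, and of the 84 higher genes (red) 81 and 78 lie right of it. Of all tested genes, 50.1% (left panel) and 49.7% (right panel) had negative values and 49.5% and 50% positive ones.

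Levels at the other doses, whose sample numbers stand apart, placed the change within the series. Relative to the 0.3 nM mean, the median level of the 134 lower genes was 109% in the controls, 77.8% with 1 nM, 56.4% with 3 nM, 44.2% with 10 nM and 37.7% with 100 nM, and 128 of them lay between their 0.3 and 3 nM means at 1 nM. For the 84 higher genes the medians were 101%, 132%, 168%, 181% and 178%, and 80 lay between at 1 nM. The choice of genes sets the gap between 0.3 and 3 nM, which makes a 1 nM level between them more likely. Shares over all tested genes were not counted. Serpinh1 had 34.6 and 34.4 RPKM in the controls. Its level was 16.1 and 15.3 RPKM at 1 nM, 7.79 and 6.08 RPKM at 10 nM, then 4 and 4.09 RPKM at 100 nM. Peg10 had 52.9 and 54.0 RPKM in the controls. Its level was 82.7 and 84.1 RPKM at 1 nM, 166 and 172 RPKM at 10 nM, then 231 and 219 RPKM at 100 nM. Both genes thus had means in the order of the dose at all 6 conditions, as did 64 of the 134 lower and 17 of the 84 higher genes. The order of 0.3 and 3 nM within these counts was fixed by the choice of genes. Emp1 was already at 1.22 and 1.04 RPKM at 1 nM and stayed at or under 0.284 RPKM in all libraries from 3 nM up.

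Some genes moved back at 100 nM. At 100 nM against 10 nM, 0.185% of tested genes were higher and 0.786% lower. Of the 84 genes higher at 3 nM, 4 were lower at that last step, Phlda1, Slc25a20, Chrna9 and Hrnr, and 3 were higher, Sfi1, Sfmbt2 and Igdcc3. Of the 134 lower genes, 2 were higher, Jade2 and Mdfic, and 14 were lower. Syngr1, Chrna9, Hrnr, Sfi1, Sfmbt2, Igdcc3, Jade2 and Mdfic fall outside the rule for named genes and were named after their values were seen. Phlda1 had 12.8 and 15.1 RPKM in the controls, 31.0 and 31.5 RPKM at 10 nM and 15.6 and 12.4 RPKM at 100 nM (log2 fold change of 100 over 10 nM -1.16, adjusted p = 2.11e-05, edgeR). Slc25a20 had 27.4 and 24.1 RPKM in the controls, 44.5 and 48.0 RPKM at 10 nM and 29.9 and 29.1 RPKM at 100 nM (log2 fold change -0.65, adjusted p = 0.000257). Mt1 was lowest at 3 nM and had 106 and 118 RPKM at 10 nM and 144 and 166 RPKM at 100 nM, where the log2 fold change of 100 over 10 nM was 0.47 (adjusted p = 0.0053), below the fold minimum. The controls of Mt1 stood at 182 and 192 RPKM.

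**Figure D5:**
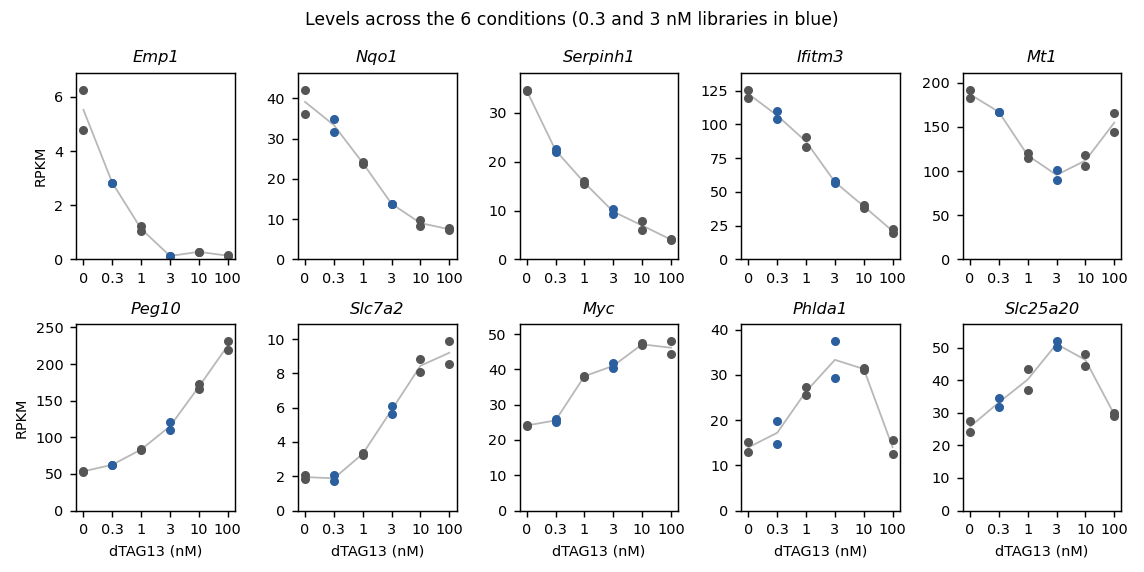
RPKM of 10 genes in all 12 libraries by dTAG13 dose (0 is the control), with the 0.3 and 3 nM libraries in blue and a line through the means. Emp1, Nqo1, Serpinh1 and Ifitm3 fall and Peg10 and Slc7a2 rise towards 100 nM, while Mt1, Phlda1 and Slc25a20 turn back between 3 and 100 nM.

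The change from 0.3 to 3 nM was set against that from 1 to 10 nM, a step of the same ratio further along, by testing the difference of the log2 fold changes in the fit of all 12 libraries. It passed an adjusted p under 0.05 for 8 genes, 0.0707% of those tested, and an unadjusted p under 0.05 for 783. The count was 0 without normalization factors, in a fit of only the 8 libraries of these doses and without 0.3 nM replicate 1, and lay between 3 and 5 without any of the other 3 libraries. The smallest adjusted p was that of Trh, the thyrotropin-releasing hormone gene, whose log2 fold change was -0.48 (standard error 0.07) from 0.3 to 3 nM and -1.14 (standard error 0.07) from 1 to 10 nM (adjusted p of the difference 0.0122, edgeR). It stood at 277 and 274 RPKM at 0.3 nM against 189 and 205 RPKM at 3 nM, with 258 and 230 RPKM at 1 nM against 112 and 109 RPKM at 10 nM. Fam53b, a regulator of WNT signalling, had 2.78 and 2.53 RPKM at 0.3 nM and 2.38 and 2.50 RPKM at 3 nM, against 1.85 and 1.86 RPKM at 1 nM and 4.08 and 4.72 RPKM at 10 nM. Over 20 chromosomes with at least 100 tested genes, the median log2 fold change from 0.3 to 3 nM lay between -0.03 and 0.03 and the share of called genes between 0.224% and 3.21%.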

How the data were processed

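Total RNA of 12 mES cell samples, 2 per dTAG13 condition, was sequenced (SMART-Seq Stranded kit, paired ends). The table deposited by the authors holds unnormalised counts of read pairs for each gene symbol. Per the methods and the file headers they trimmed reads with Trim Galore, aligned them to mm10 with HISAT2 and counted pairs on exons with featureCounts, without normalization or strand and without multi-mapped pairs. Gene lengths (another unit, other than a measurement) came with the counts.

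Here RPKM used TMM factors (0.947 to 1.06), and genes averaging 1 RPKM or more across the 4 libraries entered the test in edgeR 4.0.16 (R 4.3.3, limma 3.58.1) with library sizes from the tested genes. All 6 conditions were fitted together, leaving 6 residual degrees of freedom. Genes were called at a Benjamini-Hochberg adjusted p under 0.05 and over 1.5-fold by the quasi-likelihood test. The likelihood ratio test, which the paper's methods name, was an alternative. So were DESeq2 1.42.0, other scalings and filters, fewer libraries, a replicate block and leaving out libraries. Steps were tested on simulated data. Totals of 4663484 to 6375582 counts limit precision, and TMM would not show a shift common to all genes. Standard errors hold counting error and the estimated spread between libraries, while the floors allow for counting error only. A gene at 3 counts or fewer in both libraries of a dose gives a lower bound.

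Named genes were Smarca4 and Smarca2, and, among called genes with separate libraries, the 12 largest changes and the 6 highest levels in each direction. From each list up to 4 called members per direction and the 2 most abundant members could be named, and the 5 genes with the smallest p in the test between steps. The members and the 33 functional and 8 marker lists were chosen with earlier results of these data known. Older symbols were matched through RefSeq, and 1 of 989 list genes had no match. Promoter sequences are RefSeq's on GRCm38.p6, and the guide came from the study's oligonucleotide table. The values of 1 called list member are not reported here.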

Additional observations from a re-analysis of the deposited data

Results flagged for a closer look

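These genes are given because their change from 0.3 to 3 nM differed from that from 1 to 10 nM at an adjusted p under 0.05 (edgeR's quasi-likelihood test). The difference, the first log2 fold change minus the second, was 0.66 for Trh, 0.47 for Nynrin, 0.44 for Ahnak and 0.57 for Bcam, whose log2 fold changes from 1 to 10 nM lay between -1.14 (Trh) and -0.36 (Nynrin). It was -1.37 for Fam53b, whose log2 fold change was -0.12 from 0.3 to 3 nM and 1.25 from 1 to 10 nM. It was -0.73 for Mt1, which fell by 0.80 on the log2 scale from 0.3 to 3 nM and had a log2 fold change of -0.07 from 1 to 10 nM. Hspg2 and Htra1 also passed, with differences of 0.46 and 0.76, but fall outside the rule for named genes. Htra1 had log2 fold changes of 0.43 from 0.3 to 3 nM and -0.33 from 1 to 10 nM. Both were named after their values were seen. None of the 8 genes past this threshold kept it without normalization factors, in the fit of 8 libraries or without 0.3 nM replicate 1.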

How the results depend on the processing

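The limits are 2 libraries per dose, 4663484 to 5849613 counts each, and a spread estimated mostly from other conditions. The counts of 84 higher and 134 lower genes became 122 and 165 with the likelihood ratio test, which the paper used, and 49 and 86 with DESeq2's Wald test. They were 54 higher (95 lower) in a fit of only the 4 libraries, and 274 and 321 with no fold-change minimum. They ranged from 38 to 91 higher and from 84 to 108 lower with each library left out, lowest for both without 0.3 nM replicate 1. Scaling moved the split from 38.5% higher to 49.7% without normalization factors and 27.2% with TMM factors from every gene of the table, an alternative chosen after seeing the data. The other settings kept both counts within 1.5 times. With a replicate block they were 83 and 130. The deviations of libraries with equal replicate numbers had r = -0.13 between 0.3 and 3 nM. Over 15 pairs of conditions r ran from -0.291 to 0.357 and was over 0.1 in 2. With 2 libraries per dose these values cannot settle whether equal numbers share a culture or a batch, which the labels do not state.

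The share of lower genes called likewise at 100 nM, 91.8%, was 84.2% with the likelihood ratio test, 85.9% with no filter on low values and 69.8% with no fold-change minimum, and that of higher genes, 57.1%, was 67.3% with DESeq2 and 36.9% with no fold-change minimum. The 8 genes whose steps differed became 0 without normalization factors and in the fit of 8 libraries, 49 with no filter, and 0 to 5 with a library left out. The cause was not tested. No named gene past the threshold changed sign. Smarca4 passed in 0 of 16 alternatives, with log2 fold changes from -0.05 to 0.06, and Smarca2 was fitted in 1 setting only. Of the named genes past the threshold, 36 of 82 were lost without 0.3 nM replicate 1, 29 of 83 without 0.3 nM replicate 2, 23 of 84 without 3 nM replicate 1 and 34 of 84 without 3 nM replicate 2. The 28 counts of list members above 0 were the same in 351 of 448 refits.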

Other observations

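Of 5 level classes, the share of called genes was highest in the second lowest: 3.22% of the 2234 genes with a mean of 2 to 5 RPKM were called, against 0.715% of the 1399 genes at 50 RPKM or more. Sparc and Bcam, which are abundant surface and matrix genes, had log2 fold changes of -0.47 and -0.27 from 0.3 to 3 nM and of -1.74 and -1.51 at 100 nM against the controls. The WNT target Cdx1, a homeobox gene, had a log2 fold change of -0.56 (adjusted p = 0.00307, edgeR), just under the fold minimum, and one of -1.75 at 100 nM. Rarg and Rara, which encode retinoic acid receptors, had log2 fold changes of 0.33 and -0.44 (adjusted p = 0.014 and 0.0151), also under the minimum.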
